A study of Mus musculus with 4 samples.

Results

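The genes described here encode the ligands and receptors that steer growing axons: semaphorins and their plexin and neuropilin receptors, ephrins and Eph receptors, Slits and Robos, and netrins with Dcc and the Unc5 receptors. They were taken by symbol from the 32285 genes counted in a spatial transcriptomic data set of mouse brain, which gave 73 members. Of these, 65 had 50 or more UMIs (unique molecular identifiers, each standing for 1 captured transcript) over the 4 sections, against 13340 of all genes. The 65 comprised 34 ligands, 30 receptors and Unc50, a Golgi protein gene that the symbol rule takes in by its letters only. The 8 members under that minimum were Nrp1, Sema3g, Epha2, Efna4, Epha6, Epha1, Ntng2 and Unc5cl.

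The samples were 4 coronal sections, 1 from each of 4 male ArcCreERT2::eYFPflx mice on a C57BL/6 background, aged 3 to 4 months. The 2 trained mice had learned active place avoidance, in which a rotating arena has a sector that delivers a mild foot shock, and the 2 untrained mice had the same sessions with the shock switched off. Every mouse was given 4-hydroxytamoxifen under isoflurane shortly before the retention test, which had no shock, and tissue was taken 3 days after that test. In this line the Arc promoter drives an inducible Cre that marks active neurons with eYFP, and the counts below come from all spots, marked or not. A section is the replicate, so each condition had 2 replicates.

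Each section lay on an array of barcoded spots, and a spot holds several cells. The sections held 2359 to 3055 spots over tissue and 3560294 to 10330015 UMIs, with untrained section 1 the shallowest and trained section 2 the deepest. The tissue is labelled hippocampus, but the sections also held cortex, thalamus, hypothalamus and other areas, and the hippocampal cell layers took 96 to 176 spots a section. Spots were clustered without the member genes and named from region markers, which placed 7520 of 10940 spots in named regions. All markers of each region's list were detected somewhere in the sections, which does not speak to the names. In the named clusters not every marker rose over 1.5-fold. It was 4 of 8 in the layer 6 cluster, 5 of 8 in the layer 5 cluster and 7 of 10 in the largest hypothalamus cluster. Levels are given for 13 regions as CPM, the UMI count of a gene scaled to the same total number of UMIs in every region and section. A difference in CPM between regions or sections cannot tell fewer cells of a type from less RNA per cell.

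Guidance molecules act by contact or as secreted cues. Ephrins are membrane-bound ligands of the Eph receptor tyrosine kinases, semaphorins signal through plexins with or without a neuropilin co-receptor, Slits repel axons through Robo receptors, and netrin 1 attracts or repels depending on whether Dcc or an Unc5 receptor meets it. In the adult brain many of these proteins stay at synapses, on oligodendrocytes or at barriers, where they take part in spine shape, myelination and vascular or epithelial contacts.

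Some members had 1 brain region that stood above all others in every section. In 10 of the 65 members (15.4%), the lowest of the 4 sections in the leading region lay above every section of all other regions, against 4.96% of the genes with as many UMIs. A selection of those members are shown with the 250 bases before their RefSeq start, on GRCm38.p6, because each had 1 region above all others in every section: Epha4 and Epha5 share the CA3 pyramidal layer, Plxnc1 leads in the medial habenula and Unc5b in white matter. Capitals mark GGGCGG or its reverse complement CCGCCC, the core of the GC box. All 4 lie on the minus strand and are written 5′ to 3′.
Epha4, chr1:77515089-77515338: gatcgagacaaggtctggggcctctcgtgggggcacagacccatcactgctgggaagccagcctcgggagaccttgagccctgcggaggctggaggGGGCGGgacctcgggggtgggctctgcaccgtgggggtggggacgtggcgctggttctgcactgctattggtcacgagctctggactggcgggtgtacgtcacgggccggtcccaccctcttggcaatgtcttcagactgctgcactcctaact
Epha5, chr5:84417383-84417632: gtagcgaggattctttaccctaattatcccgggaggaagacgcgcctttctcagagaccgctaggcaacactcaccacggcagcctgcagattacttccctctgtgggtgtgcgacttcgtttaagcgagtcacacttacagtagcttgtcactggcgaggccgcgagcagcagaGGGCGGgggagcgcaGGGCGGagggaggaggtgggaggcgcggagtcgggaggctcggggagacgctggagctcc
Plxnc1, chr10:94944846-94945095: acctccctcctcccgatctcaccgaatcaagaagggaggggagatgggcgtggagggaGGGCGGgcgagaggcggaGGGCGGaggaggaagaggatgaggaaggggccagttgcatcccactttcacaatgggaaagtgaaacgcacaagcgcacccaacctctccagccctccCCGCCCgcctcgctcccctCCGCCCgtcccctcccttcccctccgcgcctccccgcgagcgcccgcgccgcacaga
Unc5b, chr10:60831582-60831831: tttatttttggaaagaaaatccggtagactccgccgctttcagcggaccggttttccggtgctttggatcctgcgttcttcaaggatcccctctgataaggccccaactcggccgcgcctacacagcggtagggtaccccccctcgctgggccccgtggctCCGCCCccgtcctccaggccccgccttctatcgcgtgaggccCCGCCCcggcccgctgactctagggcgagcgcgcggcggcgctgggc

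A window was printed only where the gene had a single such window and it did not overlap the annotated gene itself. Ntng1 and Sema4g, which also stood above all other regions in every section, were left out by that rule. The GC box was present once in Epha4, in 2 copies in Epha5 and in Unc5b, and in 4 copies in Plxnc1. TATAAA, the 2 E-box forms CAGCTG and CACGTG and the Sox core ACAAAG were searched on both strands and had no match in the 4 windows. Over the 71 RefSeq start windows of 55 members, 70.4% held GGGCGG, beside 56.9% of the windows of genes with 50 or more UMIs and 32.7% of all 32851 windows. TATAAA was in 2.82% of the member windows and in 6.53% of those of genes with 50 or more UMIs. The member windows had a median GC content of 64.8%, beside 60% for genes with 50 or more UMIs. A match is a run of letters and shows no binding.

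Together the 73 members took 1824 to 1943 CPM of a whole section, with trained and untrained sections interleaved: 1900 and 1943 in the trained sections, 1928 and 1824 in the untrained. The semaphorins, with 20 genes, took the most of any family at 471 to 536 CPM. The plexins had 304 to 345 CPM and the Epha receptors 297 to 329 CPM, and the order of these families differed between sections. The kit tags the 3′ end of a transcript once, so a UMI count does not grow with transcript length, but capture differs between genes and the order of genes by UMIs is not an order of abundance. The 10 members with the most UMIs were Epha4, Ntng1, Sema6b, Efnb3, Epha5, Sema7a, Unc50, Epha7, Unc5a and Robo2, from 3408 for Epha4 to 1401 for Robo2. Epha4 was nearly level across sections, with 119 and 127 CPM in the trained and 126 and 122 CPM in the untrained sections. Efnb3 held 76.4 and 88.0 CPM in the trained and 71.1 and 81.9 CPM in the untrained sections, and Sema6b 78.4 and 84.6 against 90.4 and 82.0 CPM.

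**Figure D1:**
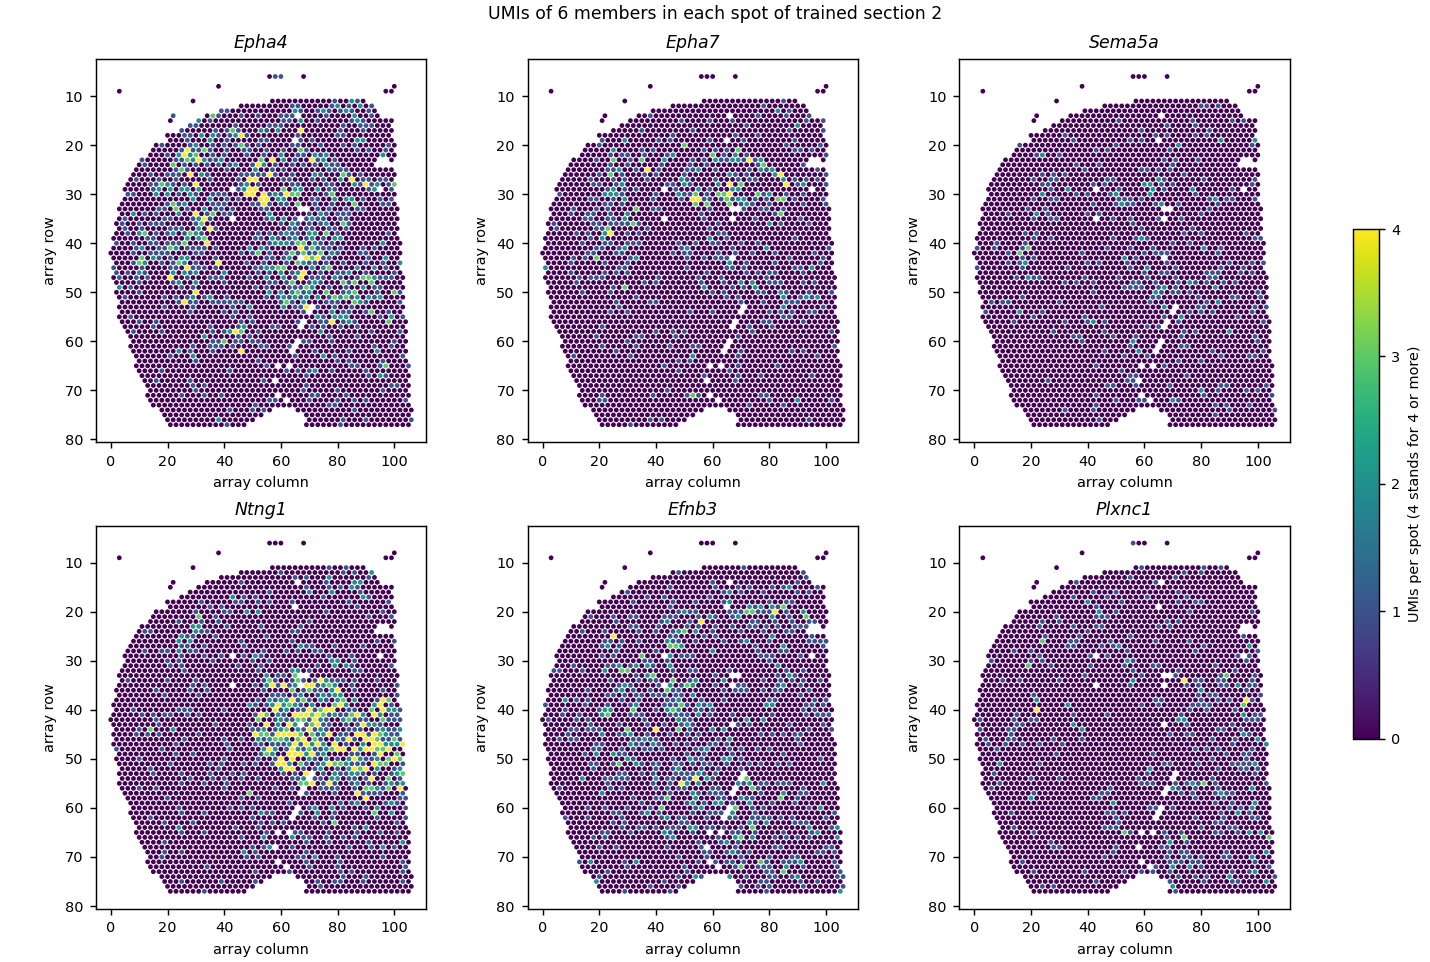
UMIs per spot of 6 members in trained section 2, the deepest section, drawn at each spot's array row and column, with the colour scale ending at 4 or more UMIs. Ntng1 fills a dense block in the middle rows on the right of the section, Epha4 has small clusters of bright spots, and Efnb3 is scattered over the section.

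**Figure D2:**
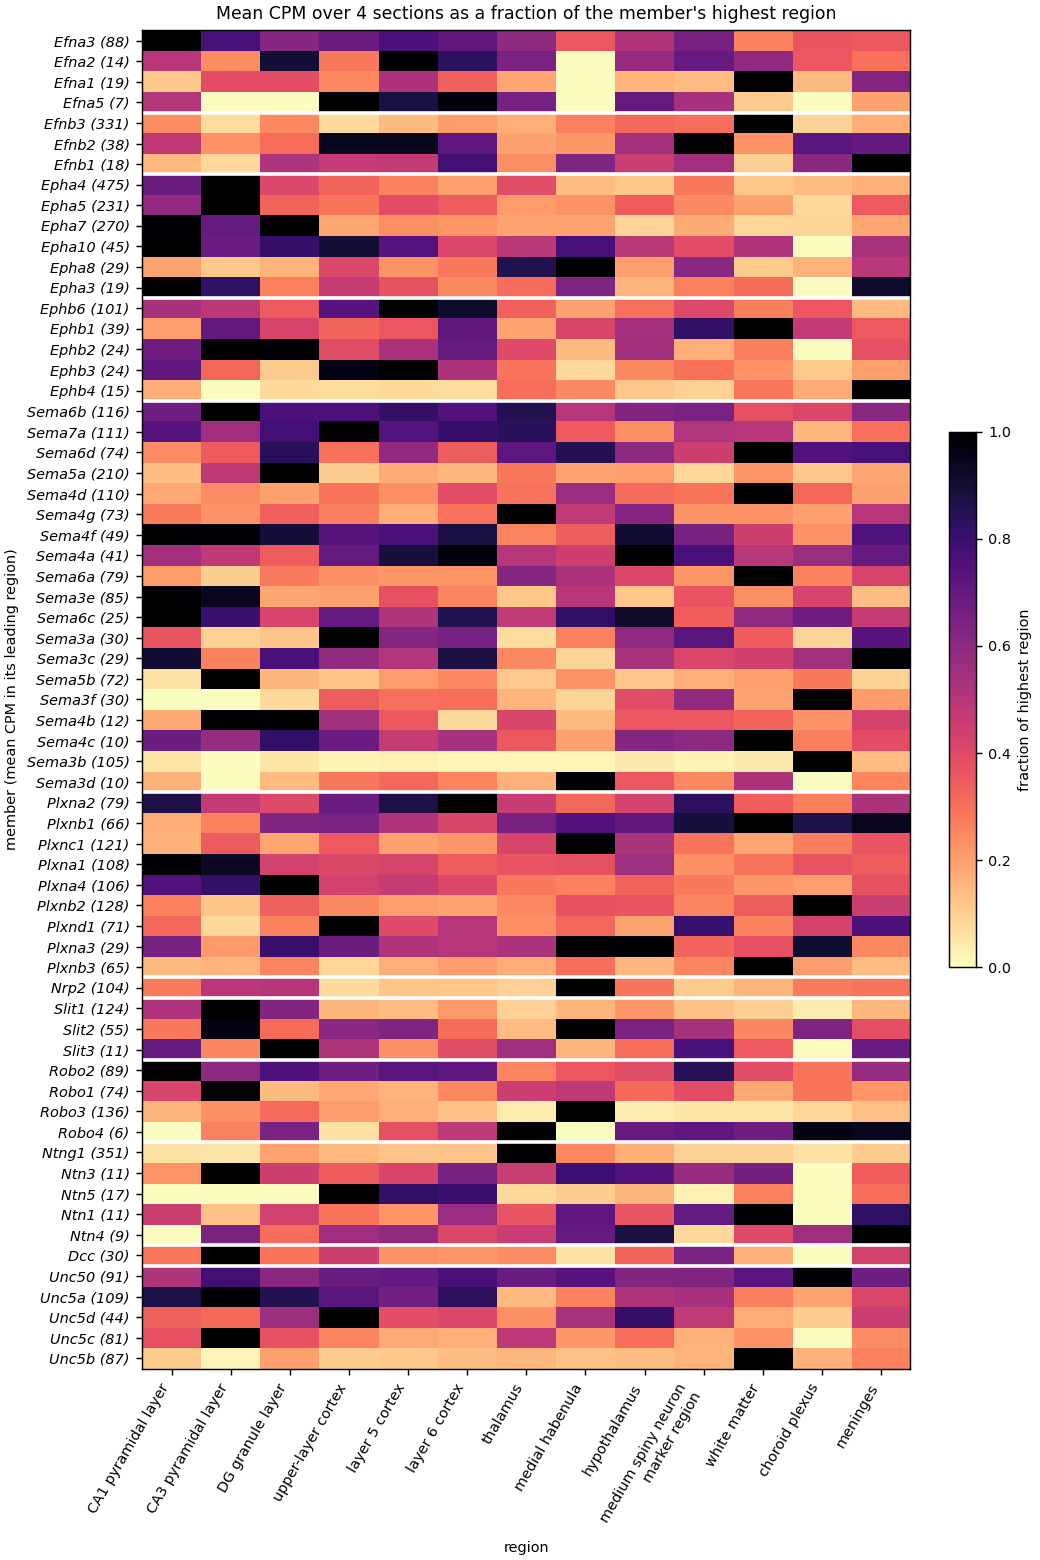
Mean CPM over 4 sections of each of the 65 members (rows, grouped by family) in 13 regions (columns), as a fraction of the member's highest region, whose CPM stands beside its name. Dark cells mark the leading regions: Epha4 and Epha5 in the CA3 pyramidal layer, Efnb3 and Unc5b in white matter, Ntng1 in the thalamus and Sema3b in the choroid plexus.

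Of the 6 A-class Eph receptors described, Epha4 and Epha5 stood above all other regions in CA3 in every section. Epha4, which binds ephrins of both classes and sits on dendritic spines, had 409 and 399 CPM in the CA3 pyramidal layer of the trained sections and 531 and 561 CPM in the untrained, a mean of 475 ± 83.1 (SD, n = 4). The next region, the CA1 pyramidal layer, had 387, 253, 312 and 339 CPM in the same order, so CA3 lay above it in every section. The untrained sections had the higher Epha4 values in CA3, but those sections held only 10 and 18 CA3 spots, under the minimum for a test between conditions. With finer clusters, which gave CA3 25 to 39 spots a section, Epha4 had 348 and 400 CPM in the trained and 369 and 437 CPM in the untrained sections (log2 fold change -0.15, SE 0.22, edgeR adjusted p = 0.944). Epha4 was lowest in white matter, at 57.3 ± 7 CPM.

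Epha5, a receptor of A-class ephrins, likewise had CA3 first and CA1 second, with 295, 166, 231 and 234 CPM in CA3 (trained 1, trained 2, untrained 1, untrained 2, as in all such rows below) and 151, 113, 131 and 148 CPM in CA1. The lowest CA3 value was 1.10 times the highest value of any other region. One UMI of the CA3 spots of untrained section 1 equals 23.1 CPM, so single values there carry a wide counting error. Epha7, another A-class receptor, was shared between granule and pyramidal cells. It had 279, 169, 291 and 342 CPM in the DG granule layer and 347, 227, 221 and 278 CPM in CA1, and the 2 regions overlapped, with 188 ± 27.7 CPM in CA3. Epha8 had its highest mean in the medial habenula at 28.7 ± 9.77 CPM on 13 UMIs, beside 24.5 ± 3.36 CPM in the thalamus. The 2 do not differ beyond their spread.

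Efnb3, a B-class ephrin carried by myelinating oligodendrocytes among other cells, had 356, 283, 353 and 331 CPM in white matter. The next region, the hypothalamus, had 115, 100, 78.4 and 123 CPM, and the lowest white matter value was 2.27 times the highest value elsewhere. White matter led for 11 of the 65 members (16.9%), against 8.41% of all genes with 50 or more UMIs. It led in 4 of 4 sections for Efnb3, Sema4d, Sema6a, Unc5b and Plxnb3, and in 3 for Efna1. For Plxnb1 it led in 2, for Ephb1, Sema4c and Ntn1 in 1, and for Sema6d in 0. The CA1 mean of Efna3, an A-class ephrin, was 87.5 ± 26.4 CPM and overlapped with CA3 and layer 5. Among the B-class receptors, the kinase-dead Ephb6 had 74.7, 124, 123 and 82.7 CPM in layer 5 cortex and 106, 103, 64.2 and 96.9 CPM in layer 6, which overlapped. The cluster named layer 5 cortex held Fezf2 and Myl4 of its markers among its 10 leading genes but also Tbr1 and Nr4a2, genes of layer 6. With finer clusters no spots were named layer 5, and Ephb6 was led by layer 6 cortex. Ephb4, a receptor of venous endothelium, led in the meninges on 10 UMIs, with 16.7, 5.13, 15.3 and 23.2 CPM.

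The 19 semaphorins described had 10 different leading regions. Sema3b, a secreted class 3 ligand, had 118, 52.0, 131 and 118 CPM in the choroid plexus, on 13, 2, 4 and 11 UMIs, and 13.9 ± 6.01 CPM in the meninges. Its lowest choroid plexus value was 2.80 times the highest of any other region, the largest such ratio of all members. Sema5a, a transmembrane ligand with thrombospondin repeats, had 270, 94.4, 218 and 256 CPM in the DG granule layer, with trained section 2 far below the other 3.

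Sema5b led in CA3 at 72.0 ± 30.7 CPM, on 27 UMIs in all, and the CA3 value was the highest of the 13 regions in each section. Sema3e, the ligand of Plxnd1, had 85.2 ± 14.1 CPM in CA1 and 80.0 ± 9.91 CPM in CA3, which overlapped. Sema4g was led by the thalamus in every section, with 70.6, 75.6, 78.2 and 69.2 CPM beside 45.5 ± 8.18 CPM in the hypothalamus. Sema4d and Sema6a, both transmembrane, were led by white matter in every section, at 110 ± 28.0 and 79.2 ± 12.6 CPM. Sema7a, a lipid-anchored ligand, had its highest mean in upper-layer cortex at 111 ± 17.5 CPM, overlapping with the thalamus. Sema4f had near means in several regions, with 49.3 ± 19.5 CPM in CA1, 43.1 ± 3.95 CPM in layer 6 cortex and 44.7 ± 13.9 CPM in the hypothalamus, down to 11 ± 13.1 CPM in the choroid plexus.

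The plexins, receptors of the semaphorins, were split in a like way. Plxnc1, the receptor of Sema7a, had 124, 140, 108 and 113 CPM in the medial habenula and 63.5 ± 5.13 CPM in the hypothalamus, and the lowest habenula value was 1.53 times the highest elsewhere. Plxnb2 was led by the choroid plexus with 217, 77.9, 131 and 85.7 CPM on 24, 3, 4 and 8 UMIs. Plxnb3 was led by white matter in every section at 65.2 ± 19.8 CPM. Plxnd1 had 71.3 ± 14.4 CPM in upper-layer cortex and 57.7 ± 11.4 CPM in the region marked by medium spiny neuron genes, which overlapped. Plxna1, a partner of the neuropilins, had 108 ± 14.4 CPM in CA1 and 101 ± 59.1 CPM in CA3, with no separation. Nrp2, a co-receptor for class 3 semaphorins, was uneven in the medial habenula, with 145, 54.4, 43.1 and 175 CPM.

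Slit1 was led by CA3 in every section, with 90.9, 79.9, 208 and 117 CPM, on 45 UMIs in all. Its receptor Robo1 had its highest mean there too, at 74.5 ± 32.8 CPM on 32 UMIs. Robo2 had its highest mean in CA1 at 89.4 ± 36.2 CPM, where trained section 2 reached 135 CPM and untrained section 1 held 50.3 CPM. Robo3, which in development lets commissural axons cross the midline, had 152, 256, 21.6 and 113 CPM in the medial habenula, where untrained section 1 rests on 1 UMI.

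Among the netrins, Ntng1 (netrin G1), a lipid-anchored relative of netrin 1 that binds Lrrc4c, stood out. It had 377, 419, 292 and 316 CPM in the thalamus on 379, 870, 138 and 242 UMIs, and 87.7 ± 42.7 CPM in the medial habenula, the next region. The lowest thalamus value was 1.93 times the highest elsewhere. Unc5b, a netrin receptor, had 70.5, 74.8, 109 and 94.5 CPM in white matter, beside 22.9 ± 12.2 CPM in the meninges. Unc5a and Unc5c both had their highest mean in CA3, at 109 ± 33.8 and 81.0 ± 55.5 CPM. Unc5c there ran from 22.7 CPM in trained section 1 to 139 CPM in untrained section 1, on 27 UMIs in all.

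**Figure D3:**
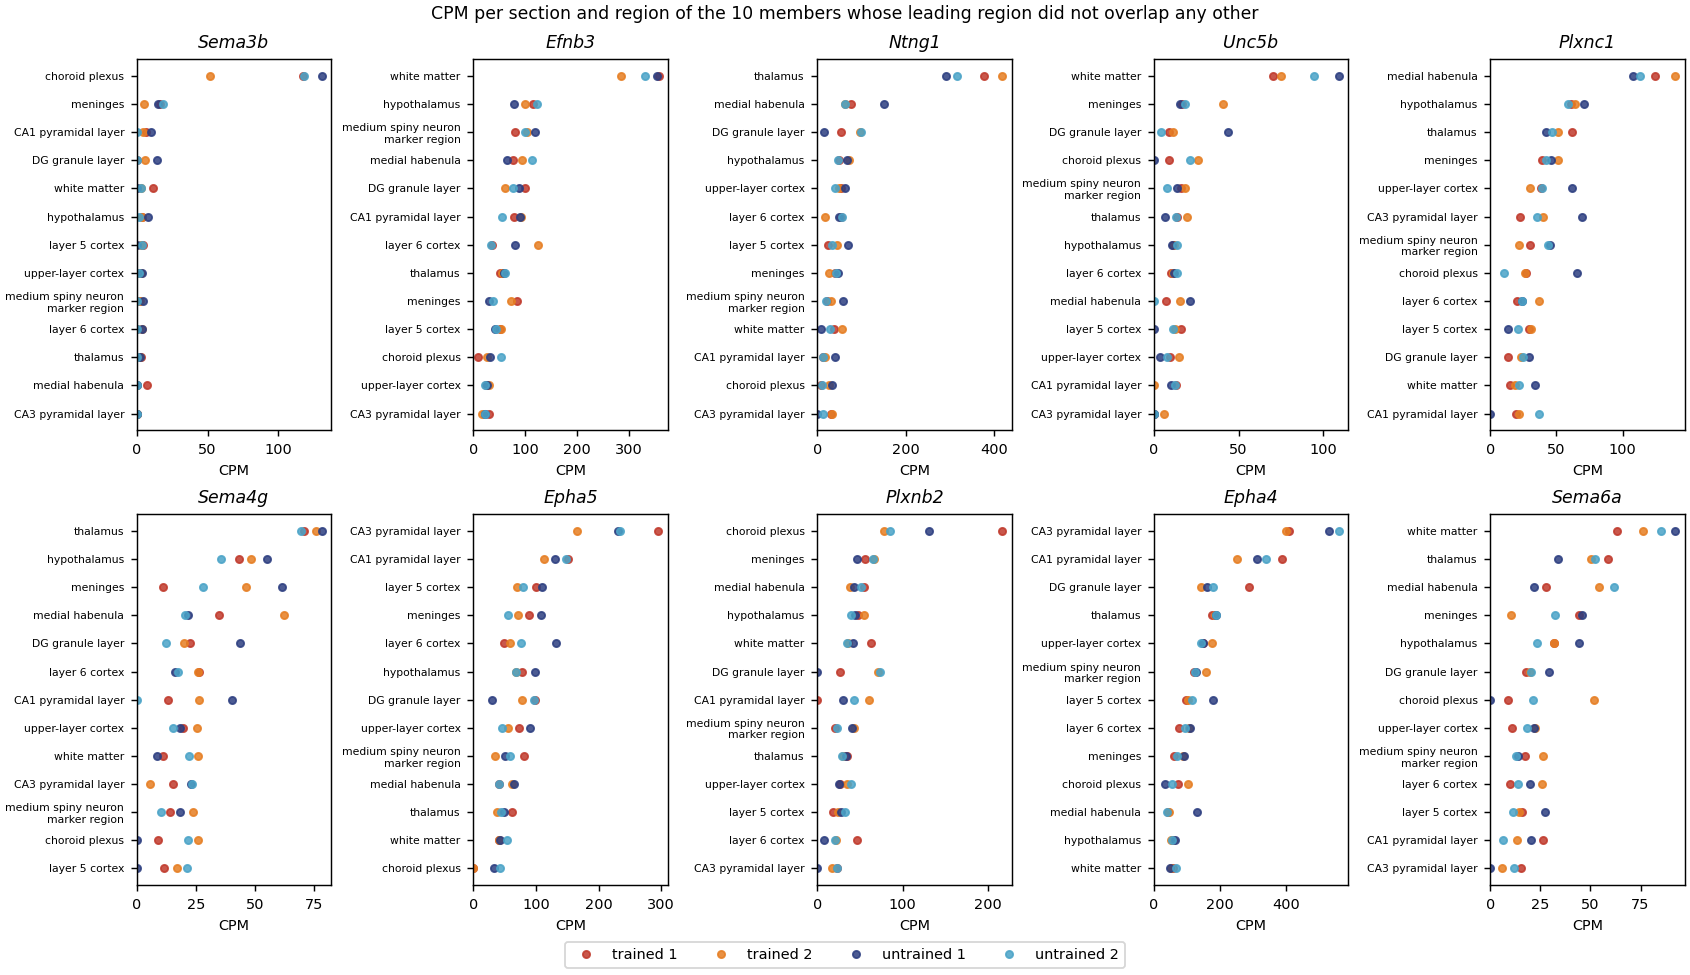
CPM of each section (points, coloured by section) in 13 regions (rows, ordered by mean) for the 10 members whose leading region lay above all others in every section. The gap is widest for Sema3b, Efnb3 and Ntng1 and narrowest for Sema6a, Epha4 and Plxnb2.

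Over all 65 members, the region with the highest mean led in 4 of 4 sections for 15 (23.1%), against 8.80% of the genes with 50 or more UMIs. Among the 36 members with 500 or more UMIs, it did so for 11 (30.6%), against 10.4% of the genes of that depth, and 8 (22.2%) stood above all other regions in every section, against 5.8%. By region, CA3 led for 12 members (background 13.2% of genes), CA1 for 8 (7.89%), upper-layer cortex and the medial habenula for 6 each (3.84% and 14.4%), DG for 4 (10.2%), choroid plexus and meninges for 4 each (13.9% and 5.7%), layer 5 cortex and the thalamus for 3 each (5.31% and 5.52%), the hypothalamus for 2 (5.13%), and layer 6 cortex and the medium spiny neuron marker region for 1 each (2.82% and 3.78%). The hippocampal layers together led for 24 of 65 (36.9%), against 31.2% of genes. By contrast, 4 members had a highest mean in a region that led in no single section. Because regions were built from the same spots, these shares are descriptions and carry no test.

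For 29 known pairs with levels for both partners, 26 of them with both partners among the members, the leading region was shared by 3: Slit1 and Robo1 in CA3, and Sema4d with Plxnb1 and Efnb3 with Ephb1 in white matter. White matter led for Ephb1 in only 1 of 4 sections and for Plxnb1 in 2 of 4, and without untrained replicate 1 the choroid plexus led for Plxnb1. In 3 others the ligand's leading region was the last of the 13 for the receptor, namely white matter for Efnb3 and Epha4, CA3 for Sema5b and Plxna3, and DG for Slit3 and Robo1. DG led for Slit3 in only 1 of 4 sections, on 9 UMIs. Ntng1 led in the thalamus and its partner Lrrc4c in upper-layer cortex at 114 CPM, with 26.7 CPM in the thalamus.

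The study compared trained with untrained mice 3 days after the test. Over whole sections, no member was called (edgeR quasi-likelihood test, Benjamini-Hochberg adjusted p under 0.05, 65 members tested within 13810 genes), and 0.0145% of all genes tested were called, 2 genes. At an unadjusted p under 0.05, the count was 5 of 65 members (7.69%), against 7.96% of genes. DESeq2 called 0 members with 1 at an unadjusted p under 0.05, and limma voom called 0 with 5. Of the 65, 34 had a fold change above 0. The median log2 fold change of the 65, trained over untrained, was 0.019, beside 0.0087 for all genes. When 1 section was left out, that median ran from -0.084 to 0.019. Both trained sections lay above both untrained for 17 of 65 members, against 29.1% of genes, and below for 8, against 12%. With 2 sections against 2, an exact permutation test of a single gene cannot go below p = 0.333.

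**Figure D4:**
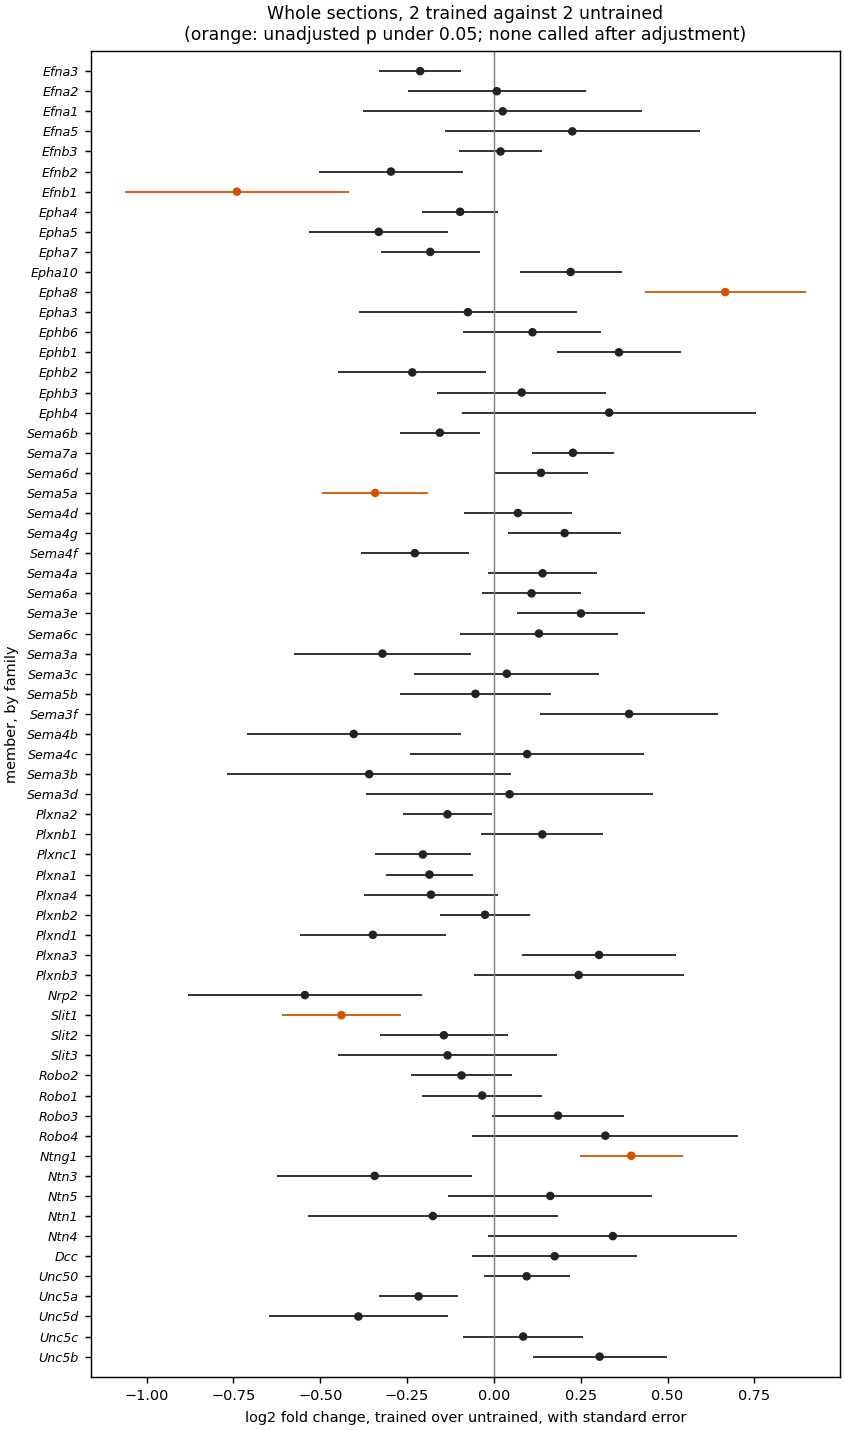
Log2 fold change, trained over untrained, of each of the 65 members over whole sections (points, with standard errors as bars), ordered by family, from edgeR on 2 sections against 2. The 5 members in orange had an unadjusted p under 0.05, and none had an adjusted p under 0.05.

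The 3 smallest unadjusted p-values were those of Epha8, Ntng1 and Slit1. Epha8, an A-class Eph receptor, had 11.7 and 14.8 CPM in the trained and 7.30 and 8.36 CPM in the untrained sections, a log2 fold change of 0.67 (SE 0.23, edgeR adjusted p = 0.584). The trained values lay above the untrained. Beside this, the summed medial habenula markers, 7 of 7 detected, were 267 and 290 CPM in the trained and 226 and 217 CPM in the untrained sections, but only 13 of the 317 Epha8 UMIs lay in that region. The thalamus, which held more of them, had markers of 774 and 1236 against 861 and 750 CPM, which overlapped. The part of these markers in the Epha8 values was not tested.

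Ntng1 had 92.3 and 126 CPM in the trained and 85.9 and 72.0 CPM in the untrained sections (log2 fold change 0.40, SE 0.15, edgeR adjusted p = 0.584). The 10 thalamus markers summed to 774 and 1236 CPM in the trained and 861 and 750 CPM in the untrained sections, so trained section 2 stood highest in both. Within thalamus spots the log2 fold change of Ntng1 was 0.32 (SE 0.15, edgeR adjusted p = 0.768), and the trained sections were again the higher. Over whole sections the value was 0.21 without trained replicate 2. Slit1 had 21.5 and 23.8 CPM in the trained and 33.4 and 25.7 CPM in the untrained sections (log2 fold change -0.44, SE 0.17, edgeR adjusted p = 0.594), next to CA3 markers of 881 and 862 CPM against 972 and 905 CPM. Only 45 of the 687 Slit1 UMIs lay in CA3 spots. The log2 fold change of Slit1 was -0.25 without untrained replicate 1 and -0.65 without untrained replicate 2. The part of these markers in the Ntng1 and Slit1 values was not tested. Efnb1, a B-class ephrin, had 6.74 and 5.52 against 6.46 and 12 CPM (log2 fold change -0.74, SE 0.32), which overlapped, and Sema5a 42.6 and 35.5 against 49.7 and 44.4 CPM (log2 fold change -0.34, SE 0.15), which did not.

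**Figure D5:**
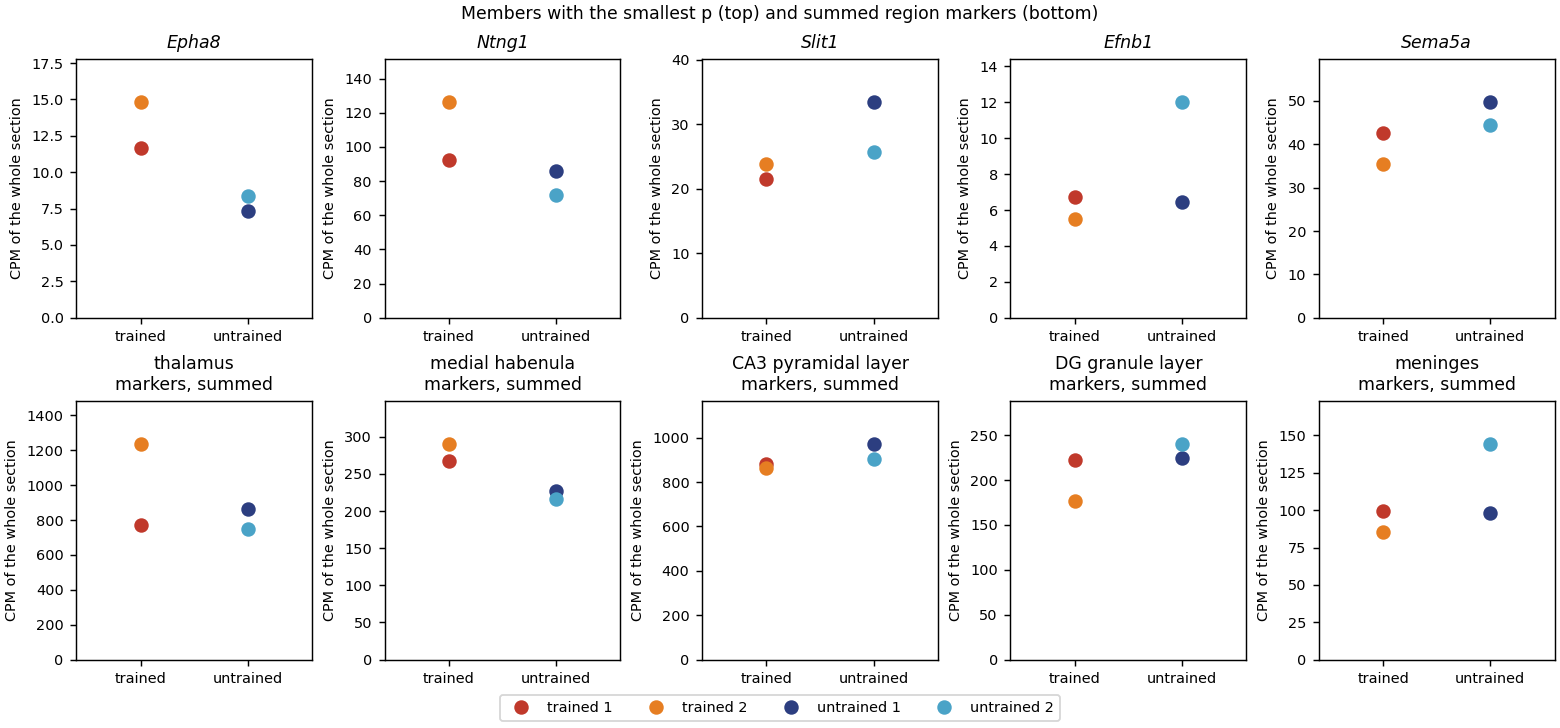
CPM of whole sections for the 5 members with an unadjusted p under 0.05 (top) and for 5 summed lists of region markers (bottom), 1 point a section, trained on the left and untrained on the right. Trained section 2 was highest for Ntng1 and for the thalamus markers, and untrained section 2 was highest for Efnb1 and for the meninges markers. Only 8 of the 207 Efnb1 UMIs lay in meninges spots.

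By family, no direction was shared by all members of any family with more than 3 described. The Sema genes had 12 of 19 fold changes above 0 (median log2 0.069), the plexins 3 of 9 (median -0.13), the Epha receptors 2 of 6 (median -0.086) and the Ephb receptors 4 of 5 (median 0.11). All 3 Slits were below 0, from -0.44 to -0.13. None of these passed the test.

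Within regions, the question was whether training changed these genes in the hippocampal layers or in other areas. No member was called by edgeR in any of the 7 regions tested, with 14 to 53 members passing the filter on low counts, nor by DESeq2. Log2 fold changes were above 0 for 6 of 14 members in CA1, 11 of 22 in DG, 11 of 34 in hippocampal layers, 31 of 53 in cortex, 15 of 35 in thalamus, 14 of 39 in hypothalamus and 5 of 17 in white matter. The median over members was -0.16 in hippocampal layers and in white matter, -0.11 in CA1, -0.093 in hypothalamus and 0.087 in cortex. It was nearer to 0 in DG (-0.044) and thalamus (-0.013), while the medians over all genes lay between -0.0025 and 0.020. Several moved when 1 section was left out. CA1 was 0.17 without trained replicate 2, with 12 of 16 members above 0. Without untrained replicate 2, cortex was -0.035 and hippocampal layers -0.018, with 20 of 43 above 0 in those layers. Hypothalamus was 0.028 without untrained replicate 1, while white matter stayed below 0 in each omission. In the CA1 pyramidal layer, 14 members were tested, 1 had an unadjusted p under 0.05 (background 4.74% of genes) and 0.0284% of genes were called. It was Robo2, with 98.3 and 135 CPM in the trained and 50.3 and 74.1 CPM in the untrained sections (log2 fold change 0.87, SE 0.43, edgeR adjusted p = 0.964). It ran from 0.56 to 1.21 when 1 section was left out. Next in CA1 were Unc5a at -0.73 (SE 0.42), which overlapped between conditions and ran from -1.36 to -0.29 when 1 section was left out and was -0.20 with finer clusters, and Sema6b at -0.47 (SE 0.46), whose sign turned with thinned sums (0.14) and without trained replicate 2 (0.072) or untrained replicate 2 (0.11). Both trained sections lay above both untrained for 2 of the 10 members with 50 or more UMIs there (background 19%) and below for none (14.8%). In the DG granule layer none of 22 members had an unadjusted p under 0.05 (background 4.03%). The 3 smallest were Sema6b, Sema7a and Plxnb1, with log2 fold changes of -0.95 (SE 0.47), -0.70 (SE 0.40) and 0.99 (SE 0.62). When 1 section was left out, they ran from -1.78 to -0.38, from -1.16 to -0.40 and from 0.45 to 1.46, the last over 3 omissions, since Plxnb1 did not pass the filter without trained replicate 2. Sema6b had 45.0 and 48.6 CPM in the trained and 189 and 69.2 CPM in the untrained sections. Of the 14 members with 50 or more UMIs there, none lay above in both trained sections (background 10.2%) and 3 lay below (23.4%).

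Over the hippocampal layers together, 34 members were tested and 2 had an unadjusted p under 0.05 (background 4.77%, with 0% of genes called). Unc5c, a netrin receptor, had 25.6 and 23.9 CPM in the trained and 66.3 and 44.6 CPM in the untrained sections (log2 fold change -1.02, SE 0.38, edgeR adjusted p = 0.937). Plxnb1, the receptor of Sema4d, had 25.6 and 43.7 CPM against 14.2 and 16.2 CPM (log2 fold change 1.26, SE 0.50, edgeR adjusted p = 0.937). For both genes the trained and untrained values did not overlap, on 3 to 33 UMIs a section, and Plxnb1 was 0.69 without trained replicate 2. The third was Sema6b at -0.53 (SE 0.25). CA3, where Unc5c was highest, gave 26 of 134 and 24 of 176 spots of these layers in the trained and 10 of 96 and 18 of 122 in the untrained sections, and the part of this makeup in the values was not tested. Among the 27 members with 50 or more UMIs in these layers, 3 lay above in both trained sections (background 15.5%) and 7 below (19.9%).

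In the cortex, 3 of 53 members had an unadjusted p under 0.05 (background 6.11%, with 0.0093% of genes called): Sema6b at -0.40 (SE 0.18), Plxna3 at 0.83 (SE 0.38) and Unc5c at 0.80 (SE 0.38). Unc5c was 0.17 without untrained replicate 2 and was 1.23 without untrained replicate 1, Sema6b ran from -0.66 to -0.22 and Plxna3 from 0.51 to 1.11 when 1 section was left out. Both trained sections lay above both untrained for 15 of 50 members (background 26.6%) and below for 2 (10.4%).

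In the thalamus 2 of 35 did (background 6.48%, with 0.021% called). Epha10, an Eph receptor without kinase activity, had 27.9 and 31.3 CPM in the trained and 19.0 and 9.14 CPM in the untrained sections (log2 fold change 1.12, SE 0.39, edgeR adjusted p = 0.725). Ntng1 was second, and the third was Sema5a at -0.49 (SE 0.24). Epha10 ran from 0.59 to 1.63 and Sema5a from -0.82 to -0.17 when 1 section was left out. Of 34 members, 10 lay above in both trained sections (background 23.2%) and 6 below (12.7%). In the hypothalamus 3 of 39 did (background 7.22%, with 0.151% called), namely Nrp2 at -0.84 (SE 0.34), Plxna3 at 0.90 (SE 0.39) and Plxnb1 at 0.63 (SE 0.27). Plxna3 was 0.38 without trained replicate 2. There 6 of 37 members lay above (background 24.6%) and 7 below (12.9%). In white matter 1 of 17 did (background 5.03%, with 0% called). It was Sema5a, with 33.4 and 23.0 CPM in the trained and 58.8 and 66.1 CPM in the untrained sections (log2 fold change -1.34, SE 0.44, edgeR adjusted p = 0.862), followed by Ntng1 at 1.03 (SE 0.52) and Unc5b at -0.49 (SE 0.30). Ntng1 rests on 10, 38, 1 and 9 UMIs there and ran from 0.71 to 2.43 when 1 section was left out. Of 16 members, 2 lay above (background 21.3%) and 4 below (12.9%).

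Unc5c had a negative difference in the hippocampal layers and a positive one in the cortex, the latter near 0 without untrained replicate 2, and the difference between them was itself tested. The training effect in hippocampal layers minus that in cortex was -1.83 on the log2 scale (SE 0.49, unadjusted p = 0.0019, edgeR adjusted p = 0.972). Plxnb1 had 1.53 (SE 0.51) and Sema7a -0.71 (SE 0.27) in the same test. No member of 45 was called, with 3 at an unadjusted p under 0.05, against 4.55% of genes, and 0% of genes were called.

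One section decided whether members were called over whole sections. Without trained replicate 1, 6 of 65 members were called by edgeR, beside 5.96% of genes, with trained section 2 as the only trained sample and assumed to vary like the others. Nrp2 at -1.24 (SE 0.23), Unc5d at -0.90 (SE 0.21), Plxnd1 at -0.73 (SE 0.18), Epha5 at -0.67 (SE 0.15) and Sema5a at -0.53 (SE 0.16) were lower, and Ntng1 at 0.55 (SE 0.14) was higher in trained section 2. Nrp2 held 12.2 CPM in trained section 2 and 26.4, 31.5 and 22.2 CPM in trained section 1 and the untrained sections. Trained section 2 also had the lowest sums of the markers of the regions that led for Plxnd1 and Unc5d (upper-layer cortex, 389 CPM against 436 to 464 CPM in the other 3), Sema5a (DG, 177 against 223 to 240 CPM) and Epha5 (CA3, 862 against 881 to 972 CPM). Nrp2 was led by the medial habenula, whose markers went the other way. They were highest in trained section 2, at 290 against 217 to 267 CPM. That section also held the most DG spots, 98 against 38 to 61. The leading region held 172 of 928 UMIs for Plxnd1, 112 of 673 for Unc5d and 171 of 1139 for Sema5a. For Epha5 it held 98 of 2057 and for Nrp2 47 of 572. Trained section 2 also had the highest sums of thalamus, hypothalamus (3135 against 1019 to 1933 CPM) and white matter markers (7044 against 4199 to 4661 CPM). Its choroid plexus sum was 533 CPM against 2463 to 5529 CPM. The part of these markers in the calls was not tested. The interaction test called 1 member, Unc5c at -1.96 (SE 0.56, edgeR adjusted p = 0.038), without the same section, beside 1.39% of genes.

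Beyond the ligands and receptors, 79 genes of the same pathways were tested over whole sections: co-receptors, GTPase regulators, kinases and adaptors, actin regulators, and the CRMP and MICAL effectors. None was called in either direction by edgeR, DESeq2 or limma voom, and 8 had an unadjusted p under 0.05 by edgeR, against 7.96% of all genes. Their median log2 fold change was -0.055, beside 0.0087 for all genes, with 27 above 0 and 52 below. When 1 section was left out, this median ran from -0.12 to -0.018. Both trained sections lay above both untrained for 14 of them (background 29.1%) and below for 17 (12%). Neo1, the netrin and RGM receptor neogenin, had the smallest p, with 47.1 and 53.6 CPM in the trained and 65.4 and 74.8 CPM in the untrained sections (log2 fold change -0.56, SE 0.12, edgeR adjusted p = 0.353). Mical2, an actin oxidase in semaphorin signalling, had 87.5 and 79.6 against 117 and 114 CPM (log2 fold change -0.55, SE 0.12, edgeR adjusted p = 0.393). Srgap3, a GTPase activator that binds Robo receptors, had 90.6 and 81.0 against 132 and 107 CPM (log2 fold change -0.55, SE 0.14, edgeR adjusted p = 0.502). In each of these the trained sections lay below the untrained. Without trained replicate 1, 7 pathway genes were called, beside 5.96% of all genes, and without trained replicate 2, 1, beside 0.283%.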

How the data were processed

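Visium spatial libraries of 4 coronal sections were analysed. The authors deposited UMI counts per gene and spot over tissue, unnormalized. The file headers name Space Ranger 1.2.2, the study's methods a later release with an mm10 reference, and the submitters' processing notes Cell Ranger 8, STAR and mm39. The count tables hold no coordinates, and positions are from RefSeq GRCm38.p6.

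Spots with 100 or more UMIs were clustered (scanpy 1.11.5, Pearson residuals, 2000 variable genes without the members, 30 components, Leiden resolution 2) and named where the leading marker list had a mean log2 fold of 0.7 or more, stood 0.5 above the next list, had 3 markers over 1.5-fold and 1 among the 20 leading genes (for a cortical layer, a marker of any cortical layer, and the next list outside cortex). Clusters led by interneuron or vascular markers stayed unnamed. Doublet calling was not applied, since spots hold several cells. The 1330 barcodes shared by all sections are array positions, not cells. The 3320 clustered spots without a name and 100 spots under the minimum entered only whole sections. A region needed 10 spots a section for levels. Tests were planned for whole sections, CA1, CA3, DG, hippocampal layers, cortex, thalamus, hypothalamus and white matter, with at least 20 spots a section, which left out CA3 except with finer clusters. The other regions were not tested.

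Counts were summed per section and region and tested with edgeR 4.0.16 (filterByExpr, TMM, quasi-likelihood F-test, Benjamini-Hochberg over all genes), with a section block for the difference between regions. DESeq2 1.42.0, limma 3.58.1, other normalizations, filters, thinning, the replicate block, finer clusters and leaving out each section were tried. The methods test single spots with a rank-sum test, which was not used because spots of a section share a mouse. The script was tested on simulated data.

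Members and lists were chosen with earlier results of these data known. Named were members called, or else the 3 with the smallest p, the 10 with the most UMIs and, per region, the one whose lowest section exceeded other regions by the largest ratio, and ligand and receptor pairs. Others were named for their leading region after their values were seen. Sections came from separate mice.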

Additional observations from a re-analysis of the deposited data

How the results depend on the processing

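No member was called in any comparison under DESeq2, DESeq2 size factors in edgeR, no filter on low counts, thinned sums, dominant transcripts left out, finer clusters, no section block, equal spots per region, a robust spread or limma voom, each where it was run, the last chosen after seeing the data. Leaving out 1 section gave 0 to 6 members called over whole sections, 0 to 1 for the difference between hippocampal layers and cortex, 0 to 7 pathway genes over whole sections, and 0 members in the 7 single regions. Without trained replicate 1, pathway genes were called in single regions too: Farp1 in DG and hippocampal layers, Cdk5r1 in hippocampal layers, Ngef in thalamus, and Farp1 in the difference between regions. So was 1 in thalamus without untrained replicate 2, and 1 each in cortex and thalamus with the replicate block. Without a filter on low counts, 3 of 80 pathway genes were called, beside 211 of 20060 genes. Same-numbered sections deviated with a correlation of 0.019 over 13810 genes and share only a number; with the replicate block, 0 members were called over whole sections and 47 genes in place of 2. The genes called over whole sections were 20 with DESeq2, 211 without a filter, 40 without trained replicate 2 and 848 without trained replicate 1. Over all alternatives the genes called ran from 0 to 6 in CA1 (1 as reported), 0 to 224 in DG (0), 0 to 205 in hippocampal layers (0), 0 to 162 in cortex (1), 0 to 100 in thalamus (2), 0 to 108 in hypothalamus (14), 0 to 37 in white matter (0) and 0 to 138 for the difference between regions (0), with the highest of each without trained replicate 1. Of 294 values of named members under alternatives, 3 reversed, all for Sema6b in CA1: 0.14 with thinned sums, 0.072 without trained replicate 2 and 0.11 without untrained replicate 2, in place of -0.47, with a range of -1.04 to 0.11 when 1 section was left out. Of 27 log2 fold changes of named members, 16 moved by over 1.5 times when 1 section was left out, and of the 27 only that of Sema6b in CA1 changed sign. Ntng1 over whole sections and Unc5c in the difference between regions passed the threshold without trained replicate 1. The leading region was the same for 53 of 65 members with finer clusters, and for 50 to 54 when 1 section was left out. CA3 had 10 to 26 spots a section and was tested only with finer clusters (25 to 39 spots), where edgeR called 0 of 16 members and 1 of 3344 genes, with 3 members (Plxna1, Unc5c and Unc50) and 5.68% of genes at an unadjusted p under 0.05. Small regions limit depth: 1 UMI equals 23.1 CPM in CA3 of untrained section 1.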
